A study of Mus musculus with 24 samples.

Results

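Eukaryotic cells make most of their ATP with the 5 protein complexes of oxidative phosphorylation in the inner mitochondrial membrane, and the nuclear genes for the subunits of these complexes are described here in the mouse maternal-fetal interface (MFI). The genes were chosen by name alone, as all names of the complex I (*Nduf*), complex II (*Sdh*), complex III (*Uqcr*), complex IV (*Cox*) and complex V (*Atp5*) subunit families, leaving out names that end in -ps, the sign of a pseudogene. This gave 89 of the 55401 genes in the count table, with 40 for complex I, 4 for complex II, 8 for complex III, 19 for complex IV and 18 for complex V. *Ndufa4* and *Ndufa4l2* carry a complex I name and are counted there, although the NDUFA4 protein is known as a subunit of complex IV. *Atp5o* appeared in 2 rows, and its second row (ENSMUSG00000116933) held 0 reads in all 24 libraries.

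Bulk polyA RNA-seq libraries were made from the MFI of wild-type (WT) C57BL/6 mice and of mice homozygous for a CRISPR-made deletion of 3 exons of *C1qtnf6* (C1qtnf6-KO), the gene for the secreted hormone CTRP6. Each genotype was sampled on 4 gestation days (gd), early at gd10.5, in mid-gestation at gd14.5 and late at gd16.5 as well as gd19.5. Every one of these 8 groups had 3 libraries, and there was no other treatment. The MFI joins the fetal placenta to the maternal decidua, and the libraries do not separate these tissues. The labels name no litter, dam or sex for a library, so that the p-values below measure only the spread between these samples. *C1qtnf6* itself lay between 64.7 and 168 CPM (counts scaled to a library size that is equal for all libraries) in the WT libraries and between 0.0341 and 2.05 CPM in the C1qtnf6-KO libraries, in the direction of each label. The libraries held 20975717 to 37383108 counted fragments, and 3 reads, the smallest number read as a signal here, corresponded to 0.0803 to 0.143 CPM. Markers of the yolk sac were high in 1 WT library and in all 3 C1qtnf6-KO libraries at gd10.5, and in 3 libraries at gd16.5. The results without the WT library at gd10.5 and without each of those at gd16.5 are given with the other cell type markers. The C1qtnf6-KO libraries at gd10.5 are a whole group and could not be left out together. Of the 89 genes, 83 passed the filter on low counts (39, 4, 8, 15 and 17 for complexes I to V). The other 6 were the second *Atp5o* row and *Ndufa11b*, *Cox6a2*, *Cox8b*, *Cox7b2* and *Cox8c*, with 15, 16, 12, 4 and 2 reads over all 24 libraries. Of these, *Cox6a2* and *Cox8b* are the known heart and skeletal muscle forms of their subunits.

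Complex I takes electrons from NADH, and complex II, which is also the succinate dehydrogenase of the citric acid cycle, takes them from succinate. Complex III passes them through cytochrome c to complex IV, which reduces oxygen, and complex V uses the resulting proton gradient to make ATP. Each complex except complex II combines subunits encoded in the mitochondrial DNA with many more encoded in the nucleus, whose genes are known to be transcribed under the control of factors such as NRF1 and the ETS family member GABP. In the placenta, mitochondria supply energy for nutrient transport and take part in steroid hormone synthesis.

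Since most of these genes moved together between stages, the sequences before their start sites were read for the NRF1 motif, spelled as GCGCA, any base and GCGC, and the ETS motif CCGGAAG, on both strands. A RefSeq promoter entry (build GRCm38.p6) was matched by symbol for 66 of the 83 genes. Within the 250 bases before the start, 13 of the 66 held the NRF1 motif (19.7%, against 4.23% of 27025 genes) and 12 held the ETS motif (18.2%, against 7.83%). Either motif was found in 22 of the 66 (33.3%), against 11.3% of the 27025. These 27025 genes were not limited to those that passed the filter on low counts, as the 66 were. The motifs do not overlap each other in their letters, and a match is a description of the letters only. Printed here are the windows of the complex II gene with the largest fall described below, *Sdhb*, of 2 genes that fell and hold an ETS motif, *Uqcr11* (complex III) and *Atp5e* (epsilon subunit of complex V), and of *Ndufs5* (complex I), which holds an NRF1 motif. They run 5′ to 3′ on the gene's strand and stop at the gene's first annotated base, at chr4:140961021-140961202 (plus strand), chr10:80406831-80407071 (minus), chr2:174464106-174464351 (minus) and chr4:123718203-123718436 (minus), and capitals mark the motif match, which in *Atp5e* is on the opposite strand.
Sdhb: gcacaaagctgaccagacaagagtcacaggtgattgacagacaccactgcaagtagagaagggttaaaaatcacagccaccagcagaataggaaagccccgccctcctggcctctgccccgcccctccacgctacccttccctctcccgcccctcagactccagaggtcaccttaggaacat
Uqcr11: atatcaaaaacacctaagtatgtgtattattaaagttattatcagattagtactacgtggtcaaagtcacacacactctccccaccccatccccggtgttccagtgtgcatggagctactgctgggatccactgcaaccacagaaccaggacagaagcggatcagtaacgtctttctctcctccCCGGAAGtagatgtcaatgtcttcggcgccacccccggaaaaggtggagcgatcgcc
Atp5e: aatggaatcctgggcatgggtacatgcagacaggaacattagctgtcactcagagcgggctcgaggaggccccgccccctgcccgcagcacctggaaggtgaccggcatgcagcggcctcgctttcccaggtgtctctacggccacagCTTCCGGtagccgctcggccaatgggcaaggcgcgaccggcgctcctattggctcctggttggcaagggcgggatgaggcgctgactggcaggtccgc
Ndufs5: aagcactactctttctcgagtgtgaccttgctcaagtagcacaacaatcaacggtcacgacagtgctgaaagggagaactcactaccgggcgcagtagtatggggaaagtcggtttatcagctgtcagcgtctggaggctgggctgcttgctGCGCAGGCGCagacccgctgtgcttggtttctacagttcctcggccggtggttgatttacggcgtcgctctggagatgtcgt

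No base of these 4 windows lies in an exon of another annotated gene. The window of *Sdhb* holds neither motif as spelled. At the step from gd10.5 to gd14.5 in WT, the 22 genes with either motif had a median log2 fold change of -0.25 with 10 called lower, and the 44 genes with neither had a median of -0.29 with 23 called lower. In C1qtnf6-KO the medians were -0.37 and -0.40, with 18 and 36 called lower.

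Levels per transcript length (RPKM, from the exon length in the count table) differed widely among the genes. In WT at gd10.5 the highest mean levels were those of *Cox8a* (255 RPKM), *Cox6a1* (208), *Atp5b* (201), *Atp5a1* (170) and *Cox7a2l* (161), and the lowest of the 83 were *Ndufb2* (1.09), *Cox7a1* (1.10), *Cox6b2* (1.13) and *Cox4i2* (1.14). The value of *Ndufb2* rests on an annotated exon length of 5628 bases, the reads being divided by it. Together the 89 genes took 0.644% ± 0.0222 (SD, n = 3) of the counts in WT at gd10.5, and at the later stages in turn 0.475% ± 0.0246, 0.382% ± 0.0147 and 0.376% ± 0.0053. In C1qtnf6-KO the 4 shares were 0.657%, 0.446%, 0.357% and 0.370%. In both genotypes the share in every gd10.5 library was above that in every later library.

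The course over gestation was then followed on the log2 CPM scale, as the mean over the genes of a complex relative to their WT gd10.5 mean. Over the 83 genes in WT this mean had fallen to -0.27 ± 0.07 (SD over 3 libraries) by gd14.5, and the values of the last pair of stages were -0.42 ± 0.11 and -0.48 ± 0.06. In C1qtnf6-KO it started at 0.00 ± 0.07 and then took the values -0.38 ± 0.07, -0.41 ± 0.03 and -0.51 ± 0.08. Most of the fall was thus in place by gd14.5 in both genotypes. By gd19.5 the mean level in WT stood at -0.38 for complex I, -0.70 for complex II, -0.61 for complex III, -0.41 for complex IV and -0.65 for complex V. The values in C1qtnf6-KO were -0.39, -0.65, -0.62, -0.45 and -0.73. The order of complexes II and IV was that of the means alone. The median over the genes of complex IV was -0.66 to -0.47 in the WT libraries and -0.68 to -0.49 in the C1qtnf6-KO libraries, and that over complex II was -0.55 to -0.46 and -0.51 to -0.41.

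**Figure D1:**
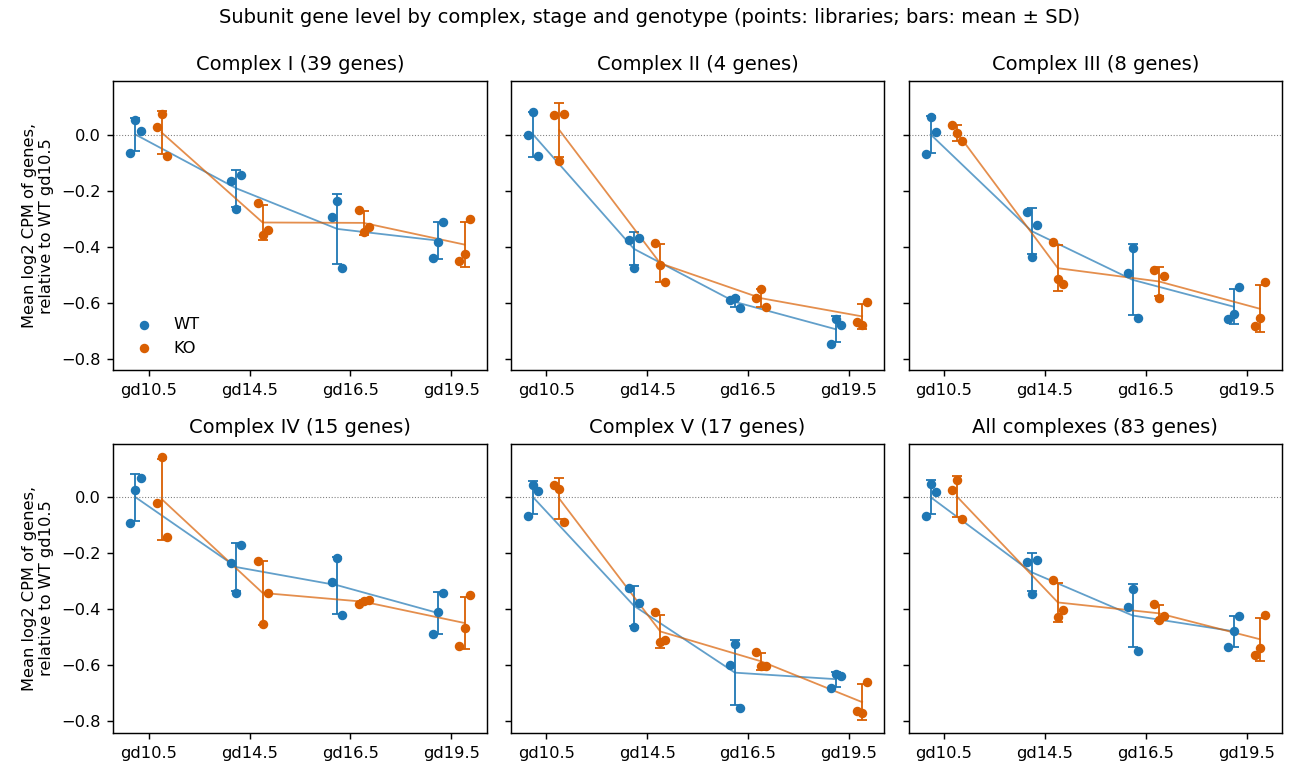
Mean log2 CPM of the subunit genes of each complex relative to their WT gd10.5 mean (y axis), by gestation stage (x axis), with WT in blue and C1qtnf6-KO in orange, points for libraries and bars for the mean ± SD of 3 libraries. All lines fall from gd10.5 to gd14.5 and end between -0.38 (complex I, WT) and -0.73 (complex V, C1qtnf6-KO) at gd19.5.

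From gd10.5 to gd14.5 in WT, 41 of the 83 genes were lower and 3 were higher at an adjusted p under 0.05 in edgeR's quasi-likelihood test, the rule for a call throughout. Over all 18523 genes tested in this comparison 28.3% were called lower and 27.7% higher, and the median log2 fold change was -0.28 over the subunit genes against -0.01 over all genes. The fold change was below 0 for 77 of the 83. The 3 libraries at gd14.5 all lay below the 3 at gd10.5 for 62 of the 83, against 32.5% of all genes. In bulk samples, fewer cells of a type and less RNA per cell cannot be told apart, and this holds for each change given here. In C1qtnf6-KO, whose libraries are separate from those of WT, 65 of the 83 were called lower and 2 higher (24.1% and 22.1% of 18467 genes), with a median of -0.37. Of the genes called lower, 40 were shared, which is 97.6% of the WT list and 61.5% of the C1qtnf6-KO list. Over all genes these shares were 74.6% and 86.5%. No subunit gene was called in opposite directions. The sign agreed for 80 of the 83, against 16070 of 18112 of all genes. Across genes, which are not independent replicates, the fold changes had a Pearson r of 0.92, the same as over all genes. Scaling by library totals instead of TMM lowered the median of all genes by 0.12 at this step in both genotypes and gave 67 lower and 2 higher in WT. These counts have no share of all genes under the same scaling beside them and cannot be compared with one.

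**Figure D2:**
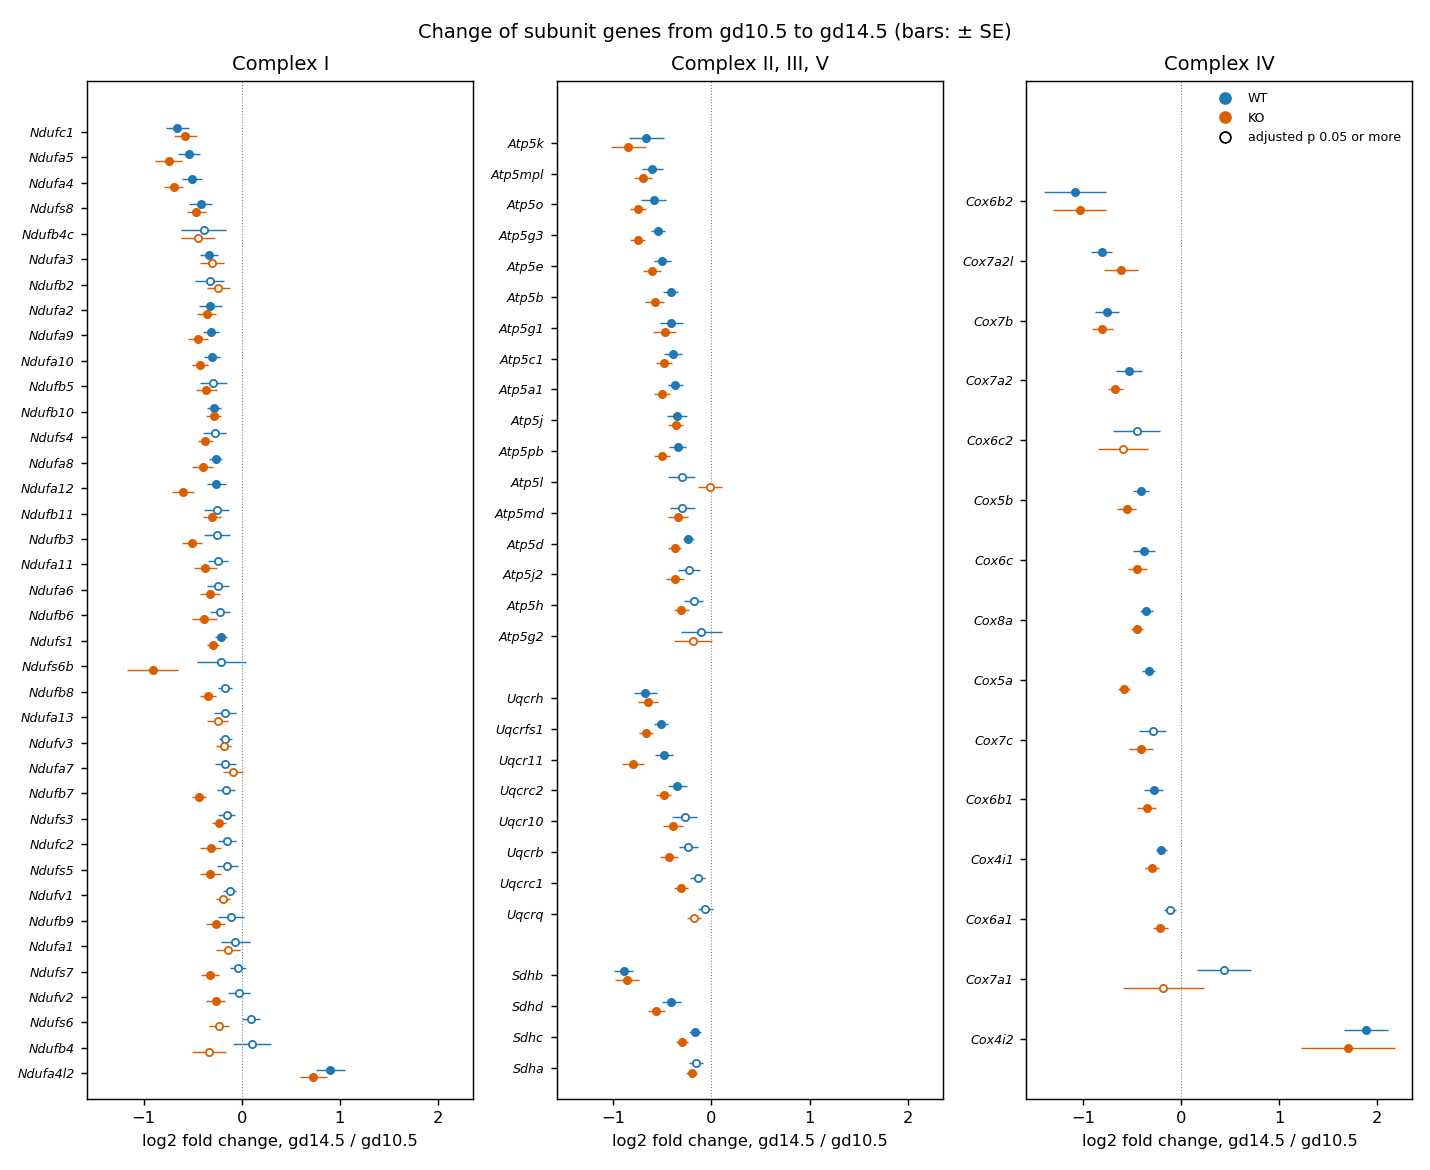
Log2 fold change from gd10.5 to gd14.5 (x axis) of 82 of the subunit genes tested, grouped by complex, with WT in blue, C1qtnf6-KO in orange and bars of ± SE. Open points have an adjusted p of 0.05 or more. Most points lie left of 0, and *Cox4i2* and *Ndufa4l2* lie right of it in both genotypes.

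The counts by complex were as follows in WT at this step. Complex I had 12 lower and 2 higher of 39 (median -0.22), complex II had 3 lower of 4 (median -0.29), and complex III had 4 lower of 8 (median -0.31). Complex IV had 10 lower and 1 higher of 15 (median -0.36), and complex V had 12 lower of 17 (median -0.37). In C1qtnf6-KO the numbers lower were 27, 4, 7, 12 and 15, with medians of -0.33, -0.43, -0.46, -0.45 and -0.48. The share of complex I called lower in WT, 30.8%, was near that of all genes (28.3%), while its share in C1qtnf6-KO was 69.2%, against 24.1% of all genes. The shares of the other complexes were 50% to 75% in WT and 80% to 100% in C1qtnf6-KO.

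Within complex II, the 4 genes fell by different amounts. *Sdhb* (ENSMUSG00000009863, chr4:140961203-140979193 in GRCm38), for the iron-sulfur subunit that carries electrons from the flavin to the membrane anchor, had 89.9, 107 and 83.2 CPM in WT at gd10.5 and 52.8, 46.1 and 51.1 CPM at gd14.5. The highest gd14.5 library lay far below the lowest gd10.5 library, and the log2 fold change was -0.90 (SE 0.09, adjusted p = 4.24e-06). In C1qtnf6-KO it had 92.4, 73.5 and 97.7 CPM at gd10.5 and 53.6, 50.4 and 41.7 CPM at gd14.5. The log2 fold change there was -0.86 (SE 0.12, adjusted p = 0.000328). *Sdhb* went on falling to between 35.8 and 37.4 CPM in WT and between 35.6 and 38.2 CPM in C1qtnf6-KO at gd16.5, the next step being called in both genotypes with log2 fold changes of -0.44 (adjusted p = 0.00503) and -0.40 (adjusted p = 0.0404). The second of these calls was lost under 9 of 18 alternatives. At gd19.5 it lay between 33.9 and 38.9 CPM over both genotypes, overlapping gd16.5. *Sdha*, for the flavin-bearing catalytic subunit, moved less, from 162, 161 and 172 CPM to 151, 140 and 151 CPM in WT. Its log2 fold change of -0.16 was not called (adjusted p = 0.0872), and the -0.20 in C1qtnf6-KO was (adjusted p = 0.016). Of the membrane anchors, *Sdhd* changed by -0.41 in WT and -0.56 in C1qtnf6-KO, and *Sdhc* by -0.16 and -0.30, all 4 called. No transcript of another annotated gene resembled that of *Sdhb* over at least 150 bases at 95% identity or more.

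**Figure D3:**
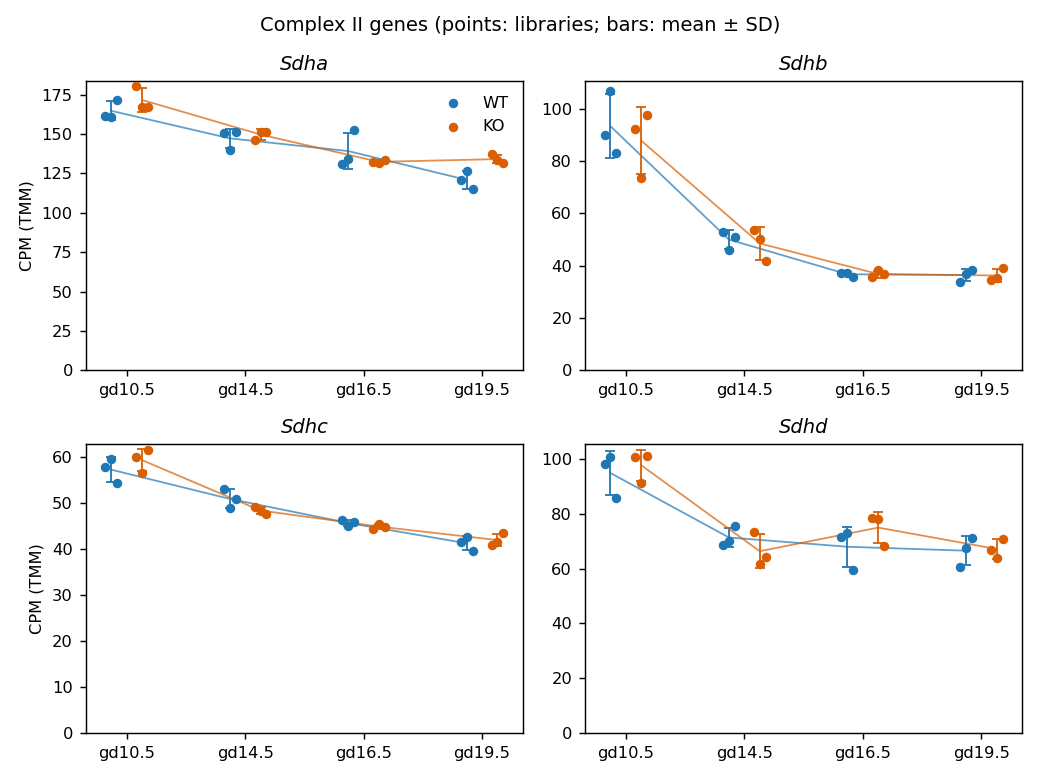
CPM (TMM-scaled, y axis, from 0) of the 4 complex II genes by stage, with WT in blue and C1qtnf6-KO in orange, points for libraries and bars for the mean ± SD of 3 libraries. *Sdhb* falls from 83.2 to 107 CPM at gd10.5 in WT to 33.9 to 38.5 CPM at gd19.5, while *Sdha* falls from 161 to 172 CPM to 115 to 127 CPM.

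In complex I, the 7 core nuclear genes, for the subunits that hold the flavin and the iron-sulfur clusters, gave 2 lower and 1 higher in WT and 5 lower in C1qtnf6-KO. *Ndufs1*, the largest of them, had 92.0, 94.1 and 92.4 CPM at gd10.5 and 84.1, 76.3 and 78.9 CPM at gd14.5 in WT, which is a change of -0.21 (log2, SE 0.06, adjusted p = 0.00893). *Ndufs8* changed by -0.42 in WT and -0.46 in C1qtnf6-KO, both called. *Ndufv1*, for the subunit that binds NADH, changed by -0.12 (adjusted p = 0.138) and -0.19 (adjusted p = 0.0546), which were not called.

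Of the 32 other genes with a complex I name, which include *Ndufa4* and *Ndufa4l2*, 10 were lower and 1 higher in WT. In C1qtnf6-KO 22 were lower and 1 higher. The gene called higher was *Ndufa4l2* in both genotypes. The WT shares called lower among the core and these other genes were both near the 28.3% of all genes. *Ndufc1* had the largest fall in WT, from 9.36, 11.2 and 11.4 CPM to 7.32, 6.61 and 6.23 CPM (log2 fold change -0.66, SE 0.12, adjusted p = 0.000371), with -0.58 in C1qtnf6-KO. In C1qtnf6-KO the largest fall among called genes was that of *Ndufs6b*, a low gene whose whole transcript resembles that of another gene, at -0.91. It was not called there by DESeq2 or without the filter on low counts, and its WT value was not called either. On the X chromosome, *Cox7b* was called lower in both genotypes (-0.75 and -0.80), *Ndufb11* changed by -0.26 in WT, which was not called (adjusted p = 0.0955), and by -0.31 in C1qtnf6-KO, which was, and *Ndufa1* was called in neither (-0.07 and -0.14).

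Complex III followed the same direction in all 8 genes in both genotypes. *Uqcrfs1*, the Rieske iron-sulfur protein, had 75.4, 76.3 and 78.3 CPM at gd10.5 and 56.1, 50.2 and 54.2 CPM at gd14.5 in WT. Its log2 fold change was -0.51 (SE 0.07, adjusted p = 4.65e-05) in WT and -0.66 in C1qtnf6-KO. *Uqcrh*, the hinge protein, which had the largest fall of the complex in WT, went from between 79.9 and 96.8 CPM to between 51.2 and 55.4 CPM (-0.67), with -0.65 in C1qtnf6-KO. Of the core proteins, *Uqcrc2* was called lower in both genotypes (-0.35 and -0.49), and *Uqcrc1* was called in C1qtnf6-KO (-0.31) and not in WT (-0.14, adjusted p = 0.135). *Uqcr11*, whose promoter window is printed above, changed by -0.48 in WT and by -0.80 in C1qtnf6-KO, the largest fall of the complex there. Whether the genotypes differed in the size of this step was not tested.

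Complex IV held the largest changes in both directions, and these were in alternative forms of its subunits. *Cox4i2* (ENSMUSG00000009876, chr2:152754173-152765037), the form of subunit 4 known for its high level in lung and its response to low oxygen, had 0.551, 0.864 and 1.27 CPM in WT at gd10.5 and 3.16, 3.48 and 3.11 CPM at gd14.5. The groups were well apart, with a log2 fold change of 1.88 (SE 0.22, adjusted p = 1.31e-05). In C1qtnf6-KO it had 0.448, 1.94 and 0.381 CPM at gd10.5 and 2.52, 3.02 and 3.48 CPM at gd14.5, so that 1 early library stood above the other 2, and the log2 fold change was 1.70 (SE 0.48, adjusted p = 0.013). This call was lost without replicate 1 of C1qtnf6-KO at gd10.5, where the value was 1.38. From gd14.5 onwards *Cox4i2* stayed between 1.94 and 4.36 CPM in all 18 libraries. *Cox4i1*, the ubiquitous form, moved the other way, from 173, 173 and 178 CPM to 153, 149 and 151 CPM in WT (-0.20, adjusted p = 0.0101), with -0.30 in C1qtnf6-KO. As a share of the subunit 4 transcripts per length, *Cox4i2* was 0.994% ± 0.381 in WT at gd10.5 and 4.07% ± 0.287 at gd14.5, followed by 4.57% and 4.66%. The 4 shares in C1qtnf6-KO were 1.01%, 3.95%, 3.84% and 5.64%.

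*Ndufa4l2* (ENSMUSG00000040280, chr10:127514967-127517154), a paralog of *Ndufa4* known as a target of the hypoxia-inducible factor HIF1, had 12.7, 11.6 and 17.2 CPM in WT at gd10.5 and 28.0, 24.6 and 24.2 CPM at gd14.5. This rise was 0.90 on the log2 scale (SE 0.15, adjusted p = 0.000202). In C1qtnf6-KO it went from between 12.7 and 17.6 CPM to 26.1, 23.5 and 24.7 CPM (0.73, adjusted p = 0.00157). The gd14.5 libraries lay above the gd10.5 libraries in both genotypes. *Ndufa4* fell over the same step, from 71.6, 81.8 and 78.0 CPM to 57.4, 49.9 and 55.0 CPM in WT (-0.50, adjusted p = 0.000911), with -0.70 in C1qtnf6-KO. Per length, *Ndufa4l2* made up 18.4% ± 3.30 of the pair in WT at gd10.5 and 37.4% ± 1.48 at gd14.5, then 42.2% and 36.0%. In C1qtnf6-KO the shares were 19.2%, 39.0%, 32.6% and 37.0%. Neither *Cox4i2* nor *Ndufa4l2* had a similar transcript in another annotated gene.

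**Figure D4:**
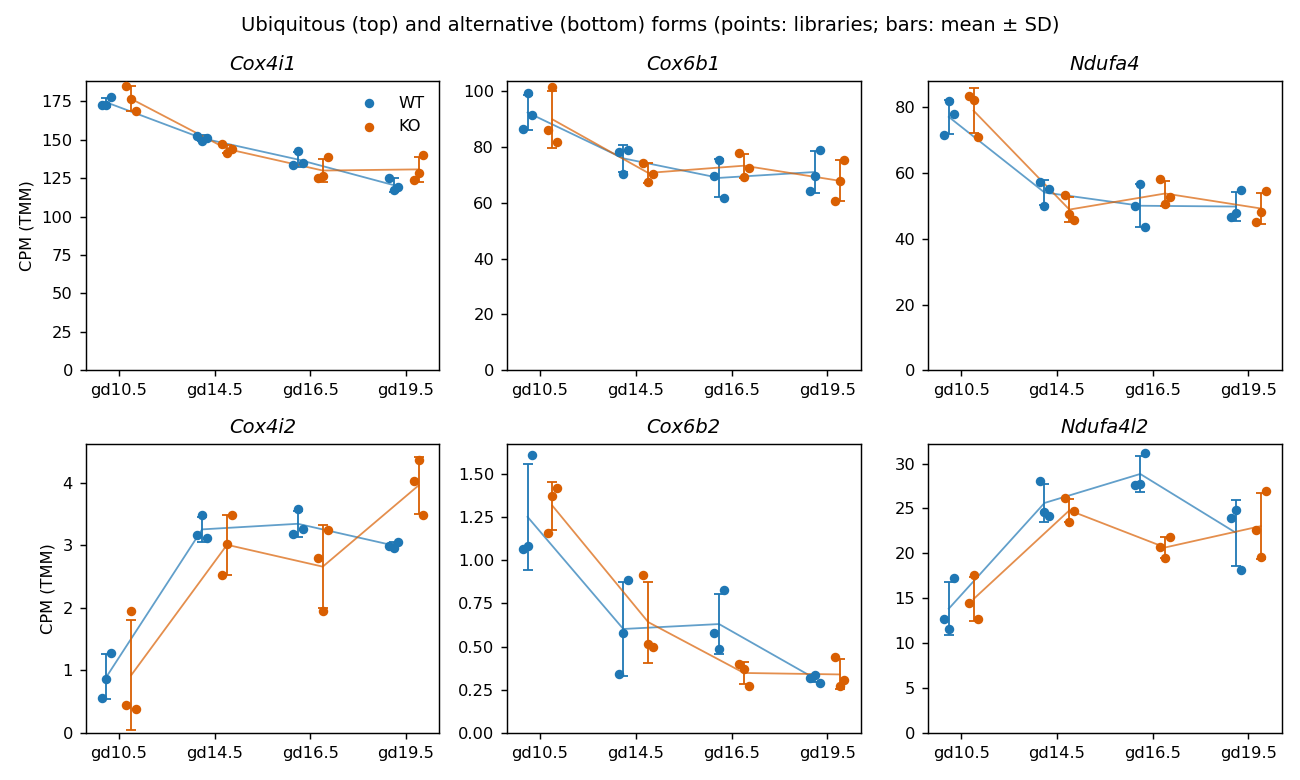
CPM (TMM-scaled, y axis, from 0) of the ubiquitous forms *Cox4i1*, *Cox6b1* and *Ndufa4* (top) and the alternative forms *Cox4i2*, *Cox6b2* and *Ndufa4l2* (bottom) by stage, with WT in blue and C1qtnf6-KO in orange, points for libraries and bars for the mean ± SD. *Cox4i2* and *Ndufa4l2* rise from gd10.5 to gd14.5 while *Cox4i1*, *Ndufa4* and *Cox6b2* fall.

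No other alternative form of complex IV was called higher at this step. *Cox6b2*, known mainly from testis, went from 1.07, 1.08 and 1.61 CPM to 0.342, 0.580 and 0.884 CPM in WT (-1.08, adjusted p = 0.0108) and changed by -1.03 in C1qtnf6-KO. Its WT call was lost without replicate 1 at gd14.5, where the value was -0.78. *Cox7a1*, the muscle form of subunit 7a, lay between 0.459 and 0.719 CPM at gd10.5 and between 0.525 and 0.948 CPM at gd14.5 in WT, and was not called in either genotype (0.44, adjusted p = 0.20, and -0.18, adjusted p = 0.739). In WT it lay between 1.31 and 1.87 CPM at gd19.5. Among the other genes with a complex IV name, *Cox7a2l* had 235, 285 and 196 CPM at gd10.5 and 133, 133 and 141 CPM at gd14.5 in WT. The fall was -0.81 on the log2 scale (SE 0.11, adjusted p = 3.45e-05), against -0.61 in C1qtnf6-KO. *Cox7b* went from between 71.4 and 82.8 CPM to between 41.2 and 48.3 CPM in WT. *Cox5a*, *Cox7a2*, *Cox8a* and *Cox6b1* were called lower in both genotypes, by 0.33, 0.53, 0.36 and 0.28 on the log2 scale in WT. *Cox6a1* changed by -0.11 in WT, which was not called (adjusted p = 0.137), and by -0.21 in C1qtnf6-KO, which was (adjusted p = 0.0402).

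In complex V, all 5 genes of the F1 head and stalk, which carry out ATP synthesis, were called lower in both genotypes. *Atp5b*, the catalytic beta subunit, had 844, 832 and 882 CPM at gd10.5 and 653, 615 and 641 CPM at gd14.5 in WT, so that it changed by -0.42 (log2, SE 0.07, adjusted p = 0.000406), with -0.58 in C1qtnf6-KO. *Atp5a1* went from 525, 507 and 568 CPM to 423, 390 and 422 CPM in WT (-0.37) and changed by -0.51 in C1qtnf6-KO. Of the 3 genes for the rotating c ring, 2 were lower in both genotypes, among them *Atp5g3*, which went from 119, 132 and 142 CPM to 88.2, 84.0 and 95.5 CPM in WT (-0.55). Of the 4 peripheral stalk genes 3 were lower in WT and 4 in C1qtnf6-KO, with *Atp5o* at -0.59 and -0.75. Of the 5 small membrane subunits 2 were lower in WT and 4 in C1qtnf6-KO. *Atp5k*, at -0.66 in WT and -0.85 in C1qtnf6-KO, had the largest fall of the complex in both.

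Fewer genes were called at the later steps. From gd14.5 to gd16.5 in WT, 9 were lower and 1 higher (9.91% and 12.5% of all genes), with a median of -0.15. The share of subunit genes called lower was thus near that of all genes, and this held in C1qtnf6-KO too. Among the 9 were *Sdhb*, *Ndufs8*, *Uqcrc1*, *Uqcrc2*, *Atp5a1*, *Atp5e*, *Atp5g2* and *Atp5g3*. The calls of *Ndufs8* and *Uqcrc2* were lost under 3 and 6 of 18 alternatives. *Atp5g2*, a low c ring gene, had 2.00, 1.99 and 1.81 CPM at gd14.5 and 1.03, 1.11 and 0.730 CPM at gd16.5 (-1.01, adjusted p = 0.00719), against -0.28 in C1qtnf6-KO (adjusted p = 0.379). The gene called higher, *Ndufb8*, went from 35.6, 35.5 and 35.7 CPM to 43.0, 45.9 and 40.1 CPM (0.28, adjusted p = 0.0143). It was not called under 3 of 18 alternatives, library totals among them. In C1qtnf6-KO, 6 were lower and 1 higher (8.1% and 9.37% of all genes), with a median of -0.02. The gene called higher, *Ndufa6* (0.39), was not called under 8 of 18 alternatives, library totals among them. The 5 genes lower in both genotypes included *Sdhb*, *Uqcrc1*, *Atp5a1* and *Atp5g3*. The C1qtnf6-KO calls of *Uqcrc1* and *Atp5g3* were each lost under 7 of 18 alternatives. With library totals, which lowered the median of all genes by 0.16 in WT and by 0.22 in C1qtnf6-KO, 45 and 34 were lower and none was higher. The shares of all genes called under this scaling are not given here, so these counts cannot be set against them. The counts also rested on single libraries, ranging from 3 to 12 in WT and from 1 to 10 in C1qtnf6-KO when each library was left out. The lowest WT value came without replicate 3 at gd14.5, and the value was 5 or 6 without replicate 1 at gd14.5, replicate 1 or 3 at gd16.5 or replicate 2 at gd19.5. In C1qtnf6-KO it was 1 or 2 without any 1 of the gd14.5 libraries or replicate 1 or 2 at gd16.5, and 4 without replicate 3 at gd16.5.

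From gd16.5 to gd19.5 in WT, *Atp5d*, the delta subunit of the F1 stalk, was the only gene called (of all genes 4.81% were called lower and 3.16% higher). It had 100, 101 and 100 CPM at gd16.5 and 86.8, 89.6 and 85.7 CPM at gd19.5 (-0.20, adjusted p = 0.047), and it was not called under 15 of 18 alternatives. DESeq2 called 7 genes at this step and edgeR fitted over all 24 libraries called 4, and the shares of all genes under these alternatives are not given here. In C1qtnf6-KO edgeR's quasi-likelihood test called 0 genes (of all genes 0.666% were called lower and 0.574% higher). At an unadjusted p under 0.05 it gave 16, all lower, against 8.99% of all genes lower, and DESeq2 called 1.

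For the genotype comparison, the question was whether loss of *C1qtnf6* changed the subunit genes at any stage. In edgeR's quasi-likelihood test 0 subunit genes were called at any of the 4 stages. Of all genes it called 1 of 17480, 3 of 18024, 1 of 17071 and 20 of 17397 by stage (0.00572%, 0.0166%, 0.00586% and 0.115%). The test thus called few genes of any kind. At an unadjusted p under 0.05 there were 0, 9, 4 and 4 subunit genes, against 0.801%, 6.78%, 11.1% and 13.5% of all genes. DESeq2, whose share of all genes is not given here, called 0, 0, 1 and 1 subunit genes. In the fit over all 24 libraries with stage as a factor, 0 were called (0.0161% of all genes), 2 had an unadjusted p under 0.05 (6.31% of all genes) and DESeq2 called 0. The median log2 fold change of C1qtnf6-KO against WT was 0.02, -0.11, 0.03 and -0.05 by stage, and -0.03 over all stages. The 95% interval of the fold change lay within 0.5 on the log2 scale on either side of 0 for 72, 77 and 69 of 83 genes at the first 3 stages and 72 of 82 at gd19.5, and for 83 of 83 over all stages.

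**Figure D5:**
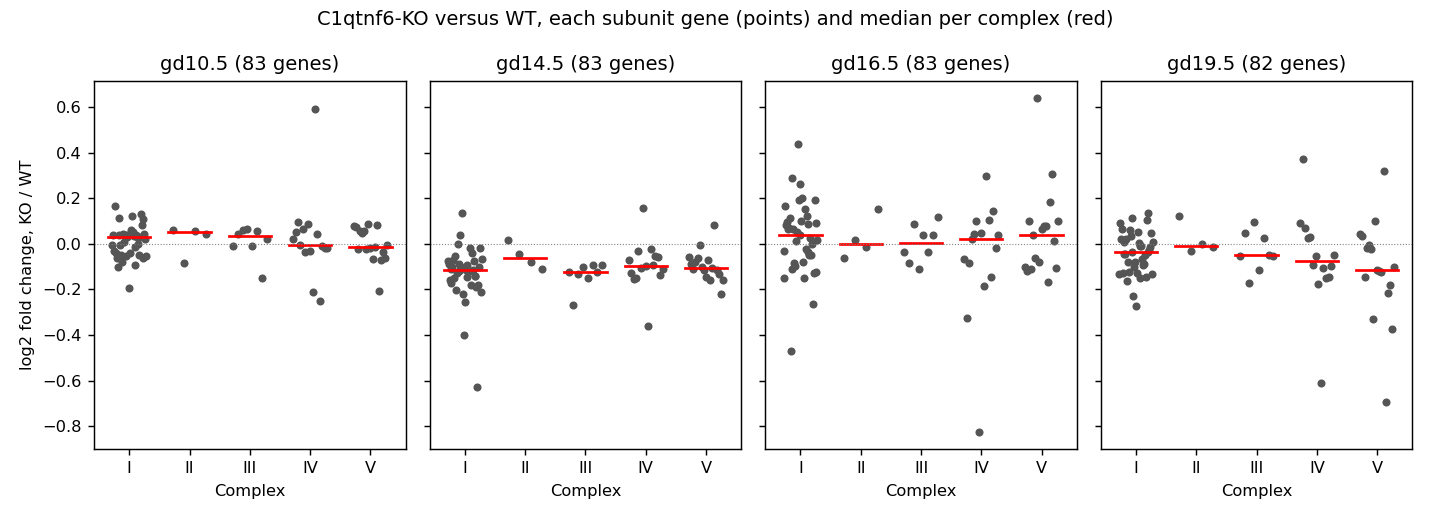
Log2 fold change of C1qtnf6-KO against WT (y axis) of each subunit gene (points) by complex (x axis) at each of the 4 stages, with the median of each complex as a red line. At gd14.5 all 5 medians lie below 0, between -0.06 and -0.12, at gd19.5 between -0.11 and -0.01, and at gd10.5 and gd16.5 between -0.01 and 0.05.

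At gd14.5 the small differences shared a direction. The fold change was below 0 for 77 of the 83 genes, against 50.8% of all genes, and below 0 for 36 of 39 in complex I, 3 of 4 in complex II, 8 of 8 in complex III, 14 of 15 in complex IV and 16 of 17 in complex V. The C1qtnf6-KO libraries all lay below the WT libraries for 15 genes and above them for 0, against 6.1% and 6.41% of all genes. All 9 genes with an unadjusted p under 0.05 were lower, against 3.48% of all genes. *Uqcr11* had 16.8, 15.1 and 15.9 CPM in WT and 14.6, 13.3 and 11.8 CPM in C1qtnf6-KO, without overlap (-0.27, adjusted p = 0.693). *Ndufv2*, for a complex I core subunit, had 76.5, 66.9 and 79.3 CPM in WT and 67.2, 63.4 and 61.9 CPM in C1qtnf6-KO, with overlap (-0.21, adjusted p = 0.693). *Ndufc2* was at -0.18 (adjusted p = 0.706). The direction was not particular to these genes. Among the related lists described below, it was below 0 for 12 of 12 subunit genes of the mitochondrial DNA (median -0.18). The same held for 5 of 5 nuclear subunit genes outside the name rule and 13 of 16 citric acid cycle and pyruvate dehydrogenase genes. It held for 35 of 45 assembly factor genes and 10 of 15 biogenesis regulators. The genes of a library are not independent replicates of each other.

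The fold change was below 0 for 39 of 83 subunit genes at gd10.5, against 8181 of 17480 of all genes. The number was 36 of 83 at gd16.5 (8256 of 17071 of all genes) and 55 of 82 at gd19.5 (8989 of 17397). The fit over all stages, which includes the gd14.5 libraries, gave 65 of 83 below 0, against 8846 of 18676 of all genes. In each of the other single stages the smallest p-values belonged to genes with no common direction. At gd10.5 they were *Cox7a1* (0.59), *Atp5l* (-0.21) and *Uqcrh* (-0.15), all with an adjusted p of 1. At gd16.5 *Ndufa4l2* had 27.6, 27.8 and 31.2 CPM in WT and 20.7, 19.4 and 21.8 CPM in C1qtnf6-KO, which do not overlap (-0.47, SE 0.09). It was not called by edgeR's quasi-likelihood test (adjusted p = 0.334) and was called by DESeq2 (adjusted p = 0.0145). In the stage before and the stage after, the *Ndufa4l2* libraries of the genotypes overlapped. *Atp5g2* (0.64) and *Ndufb2* (0.44) were next at gd16.5, each with an adjusted p of 0.433.

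At gd19.5 *Atp5l* (ENSMUSG00000038717, chr9:44912557-44920742), for a small membrane subunit of complex V, had 6.73, 5.68 and 7.30 CPM in WT and 4.15, 3.75 and 4.50 CPM in C1qtnf6-KO. The groups did not overlap, and the log2 fold change was -0.69 (SE 0.14), with an adjusted p of 0.118 in edgeR's quasi-likelihood test and of 0.0254 in DESeq2. Without the filter on low counts edgeR called it too (adjusted p = 0.000812). At gd14.5 its values were 6.27, 5.94 and 5.68 CPM in WT and 6.61, 6.52 and 5.90 CPM in C1qtnf6-KO. Transcripts of 9 other annotated genes resemble that of *Atp5l* over 72.2% of its length at 95% identity or more, and multi-mapping reads were not counted, so that its count is uncertain. *Atp5o* followed at gd19.5, with 36.9, 35.1 and 45.6 CPM in WT and 29.8, 29.7 and 33.1 CPM in C1qtnf6-KO (-0.37, adjusted p = 0.207), and was called without the filter (adjusted p = 0.00475). Transcripts of 3 other annotated genes resemble it over 92.0% of its length. It also had the smallest p over all stages (-0.18, adjusted p = 0.611). *Cox4i2* was higher in each C1qtnf6-KO library at gd19.5, at 4.02, 4.36 and 3.47 CPM against 2.99, 2.95 and 3.05 CPM (0.37, adjusted p = 0.313). In the test of whether the genotype difference changed with stage, edgeR called 0 genes (0% of all genes), 6 had an unadjusted p under 0.05 (7.23% of all genes), *Atp5l* among them with the smallest (adjusted p = 0.486), and DESeq2 called 1, also *Atp5l*, with an adjusted p of 0.0477.

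Other genes of the same pathway were taken from lists chosen with earlier results of these data known. Their counts stand against the 28.3% lower and 27.7% higher of all genes in WT and the 24.1% and 22.1% in C1qtnf6-KO. Of 12 tested subunit genes of the mitochondrial DNA, 2 were lower from gd10.5 to gd14.5 in each genotype (16.7%) and none was higher. In WT these were *mt-Nd6* (-0.49) and *mt-Nd5* (-0.42). The mitochondrial transcripts were far more abundant, with sums of 27533 to 31492 CPM in WT at gd10.5 and 21788 to 26258 CPM at gd14.5. Of 16 citric acid cycle and pyruvate dehydrogenase genes 7 were lower (43.8%) and 1 higher in WT, and 10 (62.5%) and 1 in C1qtnf6-KO, among them *Cs*, citrate synthase, at -0.56 in WT. *Cyc1*, the cytochrome c1 of complex III that the name rule leaves out, fell from 66.1 to 37.0 CPM in WT (-0.83) and by 1.06 on the log2 scale in C1qtnf6-KO. It was 1 of 5 nuclear genes listed outside the name rule, with *Cycs*, *Ndufab1*, *Atpif1* and *Dmac2l*. The sum of these 5, *Cyc1* included, went from between 137 and 146 CPM to between 106 and 116 CPM in WT. The fall of *Cyc1* thus does not describe the other genes of this list. Of 45 genes for assembly factors of the complexes 8 were lower (17.8%) and 3 higher in WT, and 10 (22.2%) and 1 in C1qtnf6-KO, both shares lower being below those of all genes. Among 15 regulators of mitochondrial biogenesis 4 were lower in WT (*Esrrb*, *Pprc1*, *Gabpa* and *Nrf1*, 26.7%) and 1 higher, *Polg*, the polymerase of the mitochondrial DNA. *Esrrb*, an orphan nuclear receptor of early trophoblast, fell most, from 17.7 to 5.47 CPM (-1.69).

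Markers of several cell types moved over the same step, and their part in the result was not tested. The summed level of 8 junctional zone trophoblast markers was 5441 to 6433 CPM in WT at gd10.5 and 44895 to 47929 CPM at gd14.5, with all 8 detected in every library. The sum of 7 decidua markers went from 6084 to 13513 CPM to 2780 to 3088 CPM, and that of 6 natural killer cell markers from 723 to 1064 CPM to 145 to 204 CPM, 4 of the 6 being above 3 reads in every gd14.5 library. The sum of 10 erythroid markers rose from 1504 to 2147 CPM to 3350 to 3448 CPM. In C1qtnf6-KO at gd10.5, 1 library had 19153 CPM of the junctional zone markers against 3128 and 3453 CPM, and leaving out any 1 library left 51 to 67 genes called at the first step. The sum of 7 labyrinth trophoblast markers went from between 389 and 543 CPM to between 797 and 889 CPM in WT, that of 7 smooth muscle markers from between 1082 and 1499 CPM to between 742 and 806 CPM, and that of 7 endothelium and pericyte markers from between 2094 and 2269 CPM to between 1657 and 1795 CPM. The level of yolk sac endoderm markers differed widely between libraries of a group. The 6 markers summed to 3628 CPM in replicate 1 of WT at gd10.5 against 12.2 and 17.2 CPM in the others, and to 1241 to 3472 CPM in C1qtnf6-KO at gd10.5, while every gd14.5 library lay between 56.3 and 159 CPM. Without that WT library 46 genes were called at the first step, against 44 with it. In C1qtnf6-KO every gd10.5 library was high, so neither its first step nor the gd10.5 genotype comparison could be fitted without such libraries. At gd16.5 the sum was 8160 CPM in replicate 1 of WT and 7815 and 22868 CPM in replicates 1 and 2 of C1qtnf6-KO, against at most 187 CPM in the other 3. Without the WT library 6 genes were called from gd14.5 to gd16.5 in place of 10, and without either of the C1qtnf6-KO libraries 1 in place of 7. Striated muscle markers summed to 8.67 to 11.8 CPM in WT at gd10.5.

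Several of these genes share sequence with other genes. Of the 89, 33 had a transcript of another annotated gene that resembled their own over at least 150 bases at 95% identity or more, and in 11 it covered most of the transcript. Exons of another gene overlapped those of 31, by over 10% of the exon bases in 13, and strand was ignored in counting, so that reads on shared exon bases were left out there, whichever gene they came from. The names set aside as pseudogenes also held reads, *Ndufa12-ps* having 21.5 CPM in WT at gd10.5 against 13.3 CPM for *Ndufa12*. The genes outside the list whose 8 group means followed the mean of the 83 most closely were *Psma1* (a proteasome subunit, Pearson r = 0.999), *Mrps28* (0.998) and *Mrpl46* (0.997), the last 2 being mitochondrial ribosome proteins. These are descriptions over 8 group means that share their libraries.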

How the data were processed

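Per the labels and the study's methods, polyA RNA of the MFI was sequenced from stranded mRNA libraries as paired-end reads. The authors trimmed reads with Trim Galore (version 0.6.4), aligned them to GRCm38 with STAR (version 2.7.3a) and counted fragments per gene with featureCounts (Subread 2.0.0), with default settings. Such settings ignore strand and leave out multi-mapping reads and reads that overlap several genes, which lowers the counts of genes with near-identical copies. The annotation version is not given in the sources used here. The deposited table holds raw counts of 55401 genes in 24 libraries, and its 24 columns were matched to the labels by name. Replicate numbers follow the library descriptions, since the titles of the C1qtnf6-KO libraries carry other numbers.

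Counts were tested in R (version 4.3.3) with edgeR (version 4.0.16, quasi-likelihood F test, TMM, filterByExpr with a minimum count of 10 and a total of 15), with Benjamini-Hochberg adjustment over all genes tested and a call at an adjusted p under 0.05. Stage steps were fitted over the 12 libraries of each genotype, and genotype comparisons over the 6 libraries of each stage and over all 24. DESeq2 (version 1.42.0) was an alternative. Every percentage of all genes called is that of the main edgeR test, so counts under an alternative have no such share beside them. CPM values were TMM-scaled over the 24 libraries, log2 CPM used a prior count of 2, and RPKM used the exon length in the table. The fits were tested on simulated counts. Transcripts were compared with BLAST (version 2.17.0). Libraries held 20975717 to 37383108 counts, and 3 counts was taken as the floor, which covers counting error only. No 2 replicates agreed within sampling noise, the chi-square per degree of freedom of their counts being 8.68 or more.

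The genes and the lists were chosen with earlier results of these data known. Named genes were the alternative forms, core subunits of each complex, the called gene with the largest rise and fall per complex and step, the 3 genes with the smallest p of each genotype comparison, X-linked genes, and the 3 most similar genes. Same-numbered libraries deviated together in some pairs and apart in others (30 pairs, r from -0.46 to 0.41, 5 over 0.1). All 5 were pairs of WT and C1qtnf6-KO at the same stage, and so was the lowest value. The replicate number was not used as a pairing, and a fit with it as a block is given below. Y-linked genes served as a covariate in an alternative. Results of 1 subunit gene are included in the counts and are not reported here by name.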

Additional observations from a re-analysis of the deposited data

Results flagged for a closer look

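In 5 cases the libraries of a gene moved apart in opposite directions in the groups of a contrast, without overlap in either. From gd16.5 to gd19.5 this held for 3 of 83 subunit genes, against 1.65% of all genes. *Atp5l* changed by 0.46 on the log2 scale in WT and by -0.39 in C1qtnf6-KO, the genotype-by-stage interaction having an adjusted p of 0.486 in edgeR's quasi-likelihood test. *Ndufb2* changed by 0.36 in WT and -0.28 in C1qtnf6-KO (adjusted p = 0.662). *Cox4i2* changed by -0.15 in WT and 0.58 in C1qtnf6-KO (adjusted p = 0.884). For C1qtnf6-KO against WT, *Ndufa12* differed by -0.17 at gd14.5 and 0.065 at gd19.5 (adjusted p = 0.747, opposite moves in 1.09% of all genes). *Cox5a* differed by -0.084 at gd16.5 and 0.068 at gd19.5 (adjusted p = 0.662, opposite moves in 2.32% of all genes). The interaction was tested over all stages at once, and the difference between these pairs of stages alone was not tested.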

How the results depend on the processing

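For the 5 genotype comparisons and the interaction, 0 genes were called under nearly all alternatives, the exceptions being DESeq2 with 1 gene at gd16.5, 1 at gd19.5 and 1 in the interaction, and no filter on low counts with 2 at gd19.5. At the first step 44 genes were called in WT and 67 in C1qtnf6-KO. Library totals in place of TMM, an alternative chosen after seeing the data, gave 69 in WT, and a fold limit of 2 left 2 in each genotype. From gd14.5 to gd16.5 (10 in WT, 7 in C1qtnf6-KO), library totals gave 45 and 34, the fold limit 1 and 0, no filter 2 in C1qtnf6-KO, and 1 fit of all 24 libraries 11 in C1qtnf6-KO. From gd16.5 to gd19.5 (1 in WT, 0 in C1qtnf6-KO), WT gave 0 with RLE size factors and the fold limit, 7 with DESeq2 and 4 with the fit of all 24 libraries, and C1qtnf6-KO gave 1 with DESeq2 and 2 with that fit. At that step library totals raised the median of all genes by 0.13 in C1qtnf6-KO. The causes were not tested. A fit with the replicate number as a block gave 41 and 62 at the first step, 6 and 1 at the next, and 0 in both at the last. Leaving out each library in turn gave 37 to 54, 3 to 12 and 0 to 2 in WT, 51 to 67, 1 to 10 and 0 to 1 in C1qtnf6-KO, and 0 to 0 in every genotype comparison and the interaction. The WT gd16.5 to gd19.5 count was 0 without any 1 of 10 of the 12 libraries, and the 1 call in C1qtnf6-KO came without its second gd10.5 library. Over the single genes named, 629 values kept their direction and side of the threshold under an alternative, 63 lost the call, 4 gained it and none changed direction. Genes under about 1 CPM, such as *Cox6b2* and *Cox7a1*, rested on few reads.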
